A study of Mus musculus with 6 samples.

Results

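The control arm of a mouse palate study was described here: 3 RNA-seq libraries of palatal shelves at E14.5, of 6 libraries in the series. The libraries were chosen by their titles, which call them WT, and were taken as control replicates 1 to 3. Their genotype label is p130Casfl/fl: both copies of the p130Cas gene (Bcar1) carry floxed alleles, and no Cre is named. They are therefore floxed controls rather than unmodified wild-type embryos. The sources used here do not give the strain, the number of embryos per library or the edge of the dissection. Nothing in the labels says that the libraries came from separate litters, so the spread between them may be partly technical. No comparison with the other 3 libraries was made.

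The palatal shelves grow from the maxillary processes as neural crest mesenchyme covered by epithelium, swing up beside the tongue and fuse at the midline. Around this stage the medial epithelium breaks down, the mesenchyme becomes continuous, and bone begins to form in the anterior hard palate while muscle forms in the posterior soft palate. Epithelial Shh and mesenchymal Bmp, Fgf and Wnt signals, read by homeobox, T-box and Osr transcription factors, control shelf growth, and Tgfb3 is needed for the epithelial seam to disappear.

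Levels are FPKM, fragments counted per unit of transcript length and of sequencing depth, as the authors deposited them, so genes of different length can be set side by side. Values are means ± SD over the 3 libraries (n = 3), and values by library are in the order of replicates 1, 2 and 3. The libraries listed 21700, 21869 and 21835 genes above 0. A mean of at least 1 FPKM was reached by 14657 genes, 12770 of them protein-coding, which is 58.9% of the protein-coding genes in the table. At least 10 FPKM was reached by 7030 genes, 100 FPKM by 498 and 1000 FPKM by 31. No listed value lay between 0 and a floor of 0.1177, 0.1029 and 0.1001 FPKM, and 88, 87 and 84 genes sat exactly on it. A gene listed at 0 was therefore under about 0.1 FPKM, and no interval could be given because the read depth is unknown. Across the genes at 1 FPKM or more, log2(FPKM + 1) correlated at 0.991 between replicates 1 and 2, 0.988 between 1 and 3 and 0.993 between 2 and 3, as a description across genes that share libraries. Xist, the RNA of the inactive X chromosome, was listed at 0 in all 3 libraries, and the 4 listed Y-linked genes were above 1 FPKM, with sums of 52.4, 44.9 and 35.7 FPKM. Ddx3y stood at 18.1, 15.3 and 15.2 FPKM, Eif2s3y at 20.5, 20.9 and 12.4 FPKM, Kdm5d at 6.69, 4.82 and 3.62 FPKM and Uty at 7.09, 3.89 and 4.42 FPKM. Replicate 1 was highest in 3 of the 4 and replicate 3 lowest in 3, and their median CV was 28.6%.

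The highest transcripts of the shelves were those of blood, mitochondria and ribosomes rather than of the palate itself. Globin genes took 5 of the 30 highest places, mitochondrially encoded genes 9 and ribosomal protein genes 6. Hba-a1, an adult alpha-globin gene, was highest at 7937, 9593 and 5278 FPKM (7602 ± 2177). Hbb-bs, an adult beta-globin gene, followed at 6734, 8441 and 4193 FPKM, and Hba-a2 at 5824, 8405 and 4444 FPKM. The order was the same for each of these genes, with replicate 2 highest and replicate 3 lowest, and the range of each covered the mean of the other 2. Eef1a1, which carries tRNAs to the ribosome, was the highest gene outside blood at 4412 ± 362 FPKM. It was followed by mt-Co1, a subunit of cytochrome oxidase, at 3742, 3722 and 3732 FPKM, the most even of the abundant transcripts.

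The highest transcript that is not translated was H19, an imprinted RNA of the Igf2 locus, at 2192, 2662 and 2838 FPKM. The 100 highest genes together held 29.3 ± 1.43% of all FPKM, and the 1000 highest held 57.1 ± 1.25%. The share of the 8 globin genes ranged widely, from 6.43% in replicate 1 and 7.98% in replicate 2 to 4.38% in replicate 3. The mitochondrially encoded genes held 5.56 ± 0.230% and the 83 ribosomal protein genes 11.3 ± 0.758%, and 25 genes were among the 30 highest of every library. The pseudogenes Gm10925, Gm28661, Gm28437 and Gm29216 on chromosome 1 were also among the 30 highest. The first 3 matched mt-Atp6, mt-Co2 and mt-Co3 closely, at 1.02 ± 0.0144, 0.998 ± 0.00526 and 1.00 ± 0.000759 times their level, so how reads were divided between them is uncertain. The alpha-globin pair and the beta-globin pair are likewise near-identical copies, and their individual levels are uncertain. In bulk tissue, fewer cells of a type and less RNA per cell cannot be told apart, which applies to every cell-type gene below.

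**Figure D1:**
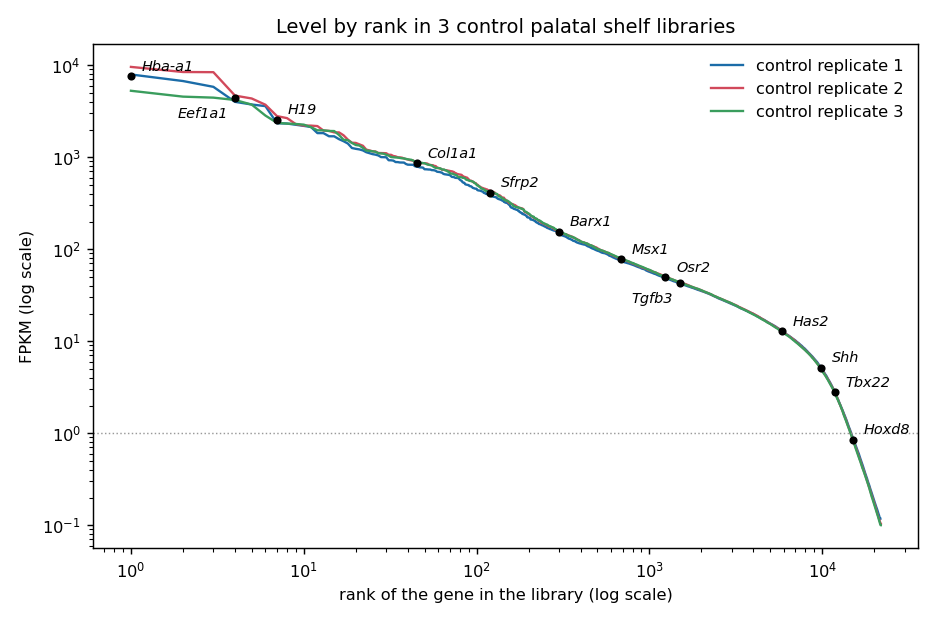
Each line plots the FPKM of every gene listed above 0 in a control library against its rank in that library, both on log scales, and the points mark the mean level of 13 named genes at their rank. The 3 curves separate only over the highest genes, where the globins lie, and the dotted line at 1 FPKM is crossed after about 14600 genes.

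The globins are shown with their promoters because they took the highest places and varied together between libraries. The stretches below are the 60 bases before the transcription start, 5′ to 3′ on the gene's strand, from the RefSeq table of GRCm38.p6, which held windows for 20367 genes of the expression table. Capitals mark matches to the letters TATAAA, to the shifted form ATATAA, or to the variant CATAAA, between 45 and 16 bases before the start, a region where a TATA box usually lies. They were searched on the gene's strand only, and the first 2 can overlap, as in Hbb-bt and Hba-x. Barx1, the highest transcription factor of the shelf, and Six2, the next, are shown as genes with no match.
Hba-a1, chr11:32283612-32283671, plus strand: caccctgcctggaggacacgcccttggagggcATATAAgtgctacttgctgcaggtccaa
Hbb-bs, chr7:103827929-103827988, minus strand: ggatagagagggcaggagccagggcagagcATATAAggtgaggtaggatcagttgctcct
Hbb-bt, chr7:103813924-103813983, minus strand: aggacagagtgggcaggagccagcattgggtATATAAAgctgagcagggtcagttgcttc
Hbb-y, chr7:103853208-103853267, minus strand: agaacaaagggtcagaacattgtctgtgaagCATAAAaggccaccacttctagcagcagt
Hba-x, chr11:32276540-32276599, plus strand: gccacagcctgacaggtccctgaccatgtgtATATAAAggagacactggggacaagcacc
Postn, chr3:54361047-54361106, plus strand, the downstream of 2 windows: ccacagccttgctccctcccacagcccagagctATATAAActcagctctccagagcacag
Barx1, chr13:48662976-48663035, plus strand: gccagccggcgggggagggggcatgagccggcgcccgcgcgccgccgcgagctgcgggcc
Six2, chr17:85688255-85688314, minus strand: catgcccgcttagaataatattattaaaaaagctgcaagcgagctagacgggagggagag

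Of the 7 globin windows, 6 held at least 1 of these letters, against 3.99% of all 24911 windows of the same length and place. TATAAA was in 2 of the 7, against 2.38% of all windows. ATATAA was in 5, against 1.34%, and CATAAA in 1, against 0.815%. The share of windows with any of the 3 was not even over levels. It was 7.21% for windows of genes listed at 0, 2.26% for genes between 1 and 10 FPKM, 1.38% between 10 and 100 FPKM and 10.2% for the 137 windows of genes at 300 FPKM or more. That top class holds 5 of the globin windows, and without them its share was 6.82%, or 9 of 132 windows. Windows of transcription factors at 10 FPKM or more held them in 2 of 193 cases. The letters GGGCGG on either strand within 250 bases before the start were in 9.68% of windows of genes listed at 0, 54.0% between 1 and 10 FPKM, 62.2% between 10 and 100 FPKM, 60.6% between 100 and 300 FPKM and 50.4% at 300 FPKM or more, and none of the globin windows held them. The median number of CG pairs in those 250 bases was 2 for genes listed at 0, 17 for genes between 10 and 100 FPKM. A match is a description of letters and not of a bound site.

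The embryonic globins Hbb-y, Hbb-bh1 and Hba-x, made by the primitive red cells of the yolk sac, were still present beside the adult genes. Hbb-y stood at 1409, 2799 and 1428 FPKM, Hba-x at 181, 326 and 185 FPKM, and Hbb-bh1 at 7.70, 19.5 and 7.14 FPKM. Replicate 2 was highest in each of them, and replicates 1 and 3 nearly coincided. As a share of all globin FPKM, these 3 genes held 6.22%, 9.27% and 9.09%, so replicate 3 combined the least globin with a high embryonic share. The ratio of adult alpha to adult beta globin was steadier, at 1.33, 1.41 and 1.498. Alas2, the red cell enzyme that starts haem synthesis, ran with the globins at 55.8, 66.4 and 34.9 FPKM, whereas the erythroid regulators Klf1 and Gata1 were under 1 FPKM (0.864 and 0.22 FPKM).

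Among 565 transcription factors of 40 families found by symbol, 360 reached 1 FPKM, 191 reached 10 FPKM and 109 were listed at 0 in all libraries. Barx1, a homeobox factor of posterior palate mesenchyme and stomach (GRCm38 chromosome 13, 48662998 to 48666507), was the highest at 141, 155 and 171 FPKM (156 ± 14.96). Six2, a homeobox factor of progenitor mesenchyme, came next at 128, 132 and 119.6 FPKM. The lowest Barx1 library stood above the highest Six2 library, but below them the order was loose: among the 19 neighbouring pairs of the 20 highest factors, ranges overlapped in 17. Tcf3, the ubiquitous partner of bHLH factors, at 116 ± 4.66 FPKM could not be placed apart from Prrx1, a homeobox factor of limb and facial mesenchyme, at 115 ± 14.2 FPKM. The other gap was between Nfatc4 at 95.2 ± 0.591 FPKM and Thra at 83.5 ± 7.99 FPKM. Jund and Nfix completed the 6 factors that averaged 100 FPKM or more.

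By summed level, the bHLH family was largest at 1079 FPKM over 70 members, followed by the AP-1, Atf and Creb group at 672 FPKM and nuclear receptors at 457 FPKM. The highest member was Foxp4 among the forkhead factors at 41.5 FPKM, Sox4 among the Sox factors at 63.3 FPKM and Pbx2 among the TALE homeobox factors at 42.8 FPKM. The family of Six2 was small, with 6 members, and Six2 alone gave most of its 208 FPKM. Hox genes, which pattern the trunk and hindbrain and are silent in the neural crest of the first arch, were the reverse. None of 38 Hox genes reached 1 FPKM and 30 were listed at 0 in all libraries. The highest, Hoxd8, stood at 0.822, 0.845 and 0.890 FPKM, and Hoxa2, which specifies the second arch, at 0.198, 0.288 and 0.341 FPKM.

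Of 59 listed palate mesenchyme factors, 57 reached 1 FPKM and 38 reached 10 FPKM. Their median was 16.4 FPKM, against 3.67 FPKM over the 565 factors, a contrast partly set by the choice of list. These factors were listed because of their known roles in this tissue, with earlier results of these data known. Msx1, required for anterior shelf growth, was the least even of the abundant ones at 76.3, 101 and 57.4 FPKM. Shox2, another anterior factor, stood at 43.1, 34.1 and 30.7 FPKM. The anterior genes did not vary together, since Msx1 was highest in replicate 2 and Shox2 in replicate 1. The ratio of Shox2 to the posterior Barx1 was 0.305, 0.220 and 0.179, and that of Msx1 to Barx1 was 0.540, 0.654 and 0.335.

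Other genes used as posterior landmarks were Meox2 at 16.5 ± 1.25 FPKM, Mn1 at 31.2 ± 2.50 FPKM and Tbx22, mutated in X-linked cleft palate, at 4.40, 2.10 and 1.82 FPKM. Tbx22 was thus far below Barx1 and was more than 2 times as high in replicate 1 as in the others, while Meox2 and Mn1 were nearly level. Osr2, required for shelf growth along the oral-nasal axis, stood at 51.4, 53.3 and 44.6 FPKM and its relative Osr1 at 33.7, 42.9 and 40.7 FPKM. The oral-side forkhead factors Foxf1 and Foxf2, targets of Hedgehog signalling, stood at 29.0 ± 1.39 and 39.6 ± 5.38 FPKM. Pax9, needed for palate and teeth, stood at 38.6, 31.7 and 32.3 FPKM. The LIM homeobox pair Lhx8 and Lhx6 ran together, at a ratio of 1.20 ± 0.0317, although each varied by more than 12% between libraries. Dlx genes, which pattern the jaw, were led by Dlx1 at 33.1 FPKM, with Dlx5 at 22.4, Dlx2 at 21.7, Dlx3 at 13.2, Dlx6 at 6.75 and Dlx4 at 0.807 FPKM.

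Factors of the skeletal lineages were led by those of bone. Sp7, which drives osteoblast maturation, stood at 53.01, 44.4 and 38.9 FPKM, and Runx2, the first osteoblast factor, at 32.3, 28.8 and 27.4 FPKM. Replicate 1 was highest in both of them. Sox9, the cartilage factor, stood lower at 16.3, 14.6 and 18.2 FPKM, with replicate 3 highest. Hand2, a factor of the lower jaw and of sympathetic neurons, had the widest spread of the palate mesenchyme factors above 2 FPKM, at 0.838, 2.87 and 4.08 FPKM. Hand1 was listed at 0.

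**Figure D2:**
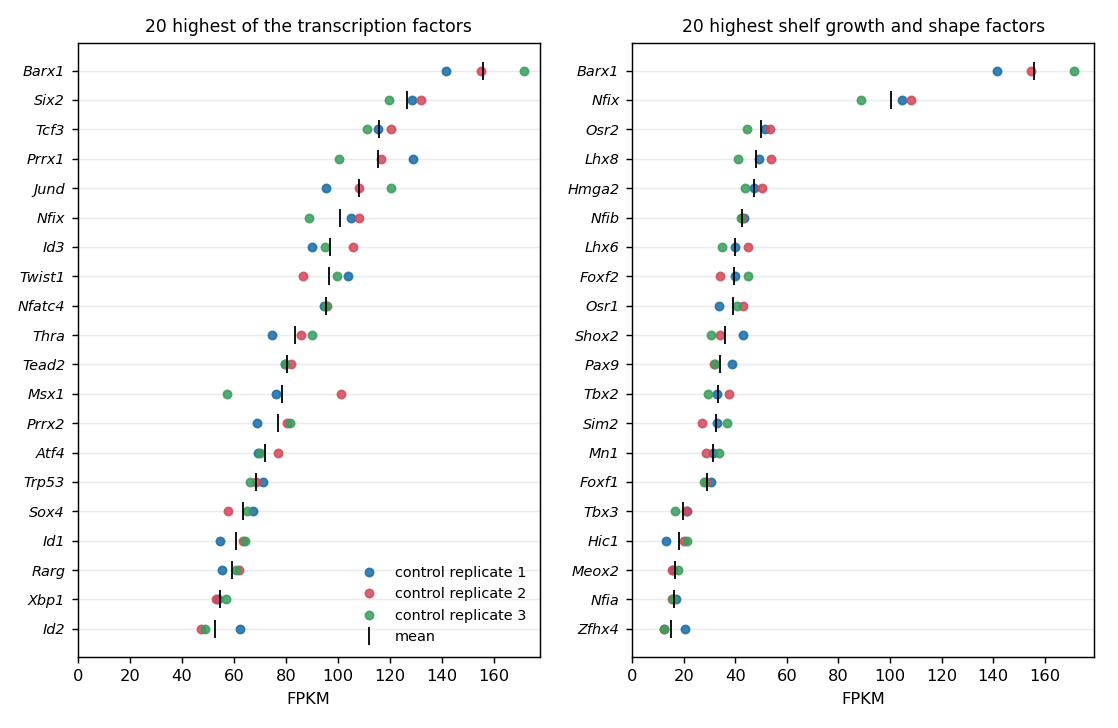
Points give the FPKM of each control library, coloured by replicate, and black bars the mean of 3; the left panel has the 20 highest transcription factors and the right panel the 20 highest of the listed shelf growth and shape factors. Barx1 stands apart at the top of both panels, Nfatc4 shows almost no spread and Msx1 the widest.

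The place of ligands beside their receptors differed between pathways, as the plot of signalling genes by role shows. The median ligand was below the median receptor for Hedgehog (3.62 against 21.1 FPKM), FGF (0.97 against 20.5 FPKM) and Wnt (2.83 against 9.16 FPKM). It was close to it for BMP (7.60 against 8.996 FPKM), TGF-beta (16.4 against 15.3 FPKM) and the Notch, ephrin and endothelin group (16.6 against 15.2 FPKM). The lists differ in breadth, from 3 Hedgehog to 22 FGF ligands, so these medians partly follow from the choice of members. In the Hedgehog pathway, Shh, which the palatal epithelium secretes from the rugae, stood at 5.85, 4.95 and 4.63 FPKM, and Ihh, a ligand of cartilage and bone, at 3.90, 3.17 and 3.80 FPKM. Smo, the receptor subunit that passes the signal on, stood at 71.1, 70.6 and 71.7 FPKM, which was 13.97 ± 1.68 times Shh. The co-receptor Gas1 stood at 46.2 ± 3.87 FPKM. The receptor Ptch1 and the factor Gli1, which the pathway itself switches on, were both above the ligand: Ptch1 at 36.3, 26.8 and 29.3 FPKM and Gli1 at 50.1, 44.9 and 44.3 FPKM. Shh, Ptch1 and Gli1 were each highest in replicate 1, while Smo hardly varied. Gli1 exceeded Gli3 (14.2 ± 2.34 FPKM) and Gli2 (13.3 FPKM) in each library. Of the 20 Hedgehog genes, 18 reached 1 FPKM, and Dhh, a ligand of nerve sheath and gonad, did not (0.375 FPKM).

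BMP ligands, which signal between epithelium and mesenchyme, lay between 1.25 and 19.7 FPKM. Bmp7 was highest at 19.2, 20.8 and 19.2 FPKM, Bmp4, a target of Msx1 in the shelf, stood at 15.1, 15.2 and 14.7 FPKM, and Bmp2 at 7.84, 7.97 and 8.09 FPKM. All 3 were even, and their ranges did not overlap. The receptor Bmpr1a stood at 27.2 ± 2.12 FPKM and Bmpr1b, its cartilage relative, at 2.04 FPKM. Secreted inhibitors included the highest gene of the pathway, the follistatin-like Fstl1 at 252, 266 and 278 FPKM. The others were far lower, at 45.4 FPKM for Twsg1, 28.7 for Sostdc1, 11.1 for Fst, 6.57 for Chrd and 5.32 for Nog. Id1, Id2 and Id3, direct targets of BMP signalling that block bHLH factors, stood at 60.7, 52.9 and 96.9 FPKM.

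Of the TGF-beta ligands, Tgfb3, known for its role in the medial edge epithelium, was highest at 40.7, 41.7 and 46.6 FPKM. The cells of the shelf that gave this level were not separated. Tgfb1 stood at 22.7, 20.7 and 22.1 FPKM and the mesenchymal Tgfb2 at 16.0, 15.5 and 17.5 FPKM. Tgfb3 was 1.98 ± 0.162 times Tgfb1, and no Tgfb1 library reached the lowest Tgfb3 library. The receptors Tgfbr1 and Tgfbr2 stood at 20.1 ± 0.767 and 15.3 ± 1.29 FPKM, so Tgfb3 lay above both of its receptors, unlike the ligands of the Hedgehog and FGF pathways. Ltbp3, which holds latent TGF-beta in the matrix, led the other members at 68.1 ± 4.73 FPKM.

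FGF ligands had the lowest median of any ligand class described here, 0.97 FPKM over 22 genes, and 11 of them reached 1 FPKM. By summed level the 3 Hedgehog ligands were lower, at 9.14 against 50.6 FPKM. The highest FGF ligand was Fgf13, an intracellular member that is not secreted, at 10.4 ± 0.414 FPKM. Fgf18, which acts on bone, stood at 6.24, 7.01 and 8.49 FPKM, Fgf10, which mesenchyme sends to the epithelium, at 4.46, 4.12 and 3.71 FPKM, and Fgf7 at 3.30 FPKM. Receptors were an order of magnitude higher. Fgfr1 stood at 112, 98.5 and 102 FPKM and Fgfr2, the receptor of Fgf10, at 49.8, 48.7 and 43.5 FPKM, which was 11.6 ± 0.357 times Fgf10. The feedback genes that FGF signalling induces were all above 1 FPKM, led by Dusp6 at 32.8 FPKM, with Etv4 and Spry1 both at 18.2 FPKM. Fgf8, an early ligand of facial epithelium, stood at 0.11 FPKM.

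Wnt ligands were led by Wnt5a, which guides cell migration in the shelf, at 20.8, 18.3 and 17.5 FPKM, and Wnt11 at 11.7, 9.77 and 18.5 FPKM. The remaining Wnt genes stayed under 7 FPKM, and Wnt1, Wnt8a and Wnt8b were listed at 0. Wnt3, Wnt7a and Wnt9b were each under 0.2 FPKM. Secreted inhibitors outweighed the ligands. Sfrp2, which binds Wnt proteins outside the cell, stood at 435, 398 and 403 FPKM, and Sfrp1 and Frzb at 56.6 and 48.3 FPKM. The summed level was 588 ± 22.2 FPKM for the 10 inhibitors and 78.5 ± 1.38 FPKM for the 19 ligands. Fzd2 was the highest receptor at 65.5, 66.6 and 73.6 FPKM. Ctnnb1, which encodes beta-catenin and also serves cell junctions, stood at 312 ± 14.04 FPKM, and Axin2 and Lef1, targets of the pathway, at 15.7 ± 1.56 and 8.93 ± 2.04 FPKM.

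The most abundant growth factor transcript of the shelf was Igf2, an imprinted fetal growth factor (GRCm38 chromosome 7, 142650766 to 142666816), at 739.8, 775 and 871 FPKM. H19, transcribed beside it from the other parental allele, was 3.22 ± 0.238 times as high. Several IGF-binding proteins were also high: Igfbp5 at 372, 391 and 429 FPKM, Igfbp4 at 253 FPKM, Igfbp3 at 123.6 FPKM and Igfbp2 at 112 FPKM. The receptors were far lower, with Igf2r at 33.1 FPKM and Igf1r at 18.0 FPKM. Pdgfra, a receptor of neural crest mesenchyme, stood at 52.1, 43.5 and 56.4 FPKM, and its ligands Pdgfa and Pdgfc at 28.1 and 18.6 FPKM. Imprinted growth genes as a list shared the high range: all 15 listed, H19 among them, reached 10 FPKM, with a median of 237 FPKM. They included Gnas, a G protein subunit, at 932 ± 49.998 FPKM, the cell cycle inhibitor Cdkn1c at 744 ± 90.3 FPKM and the Notch-like Dlk1 at 279 ± 48.7 FPKM.

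**Figure D3:**
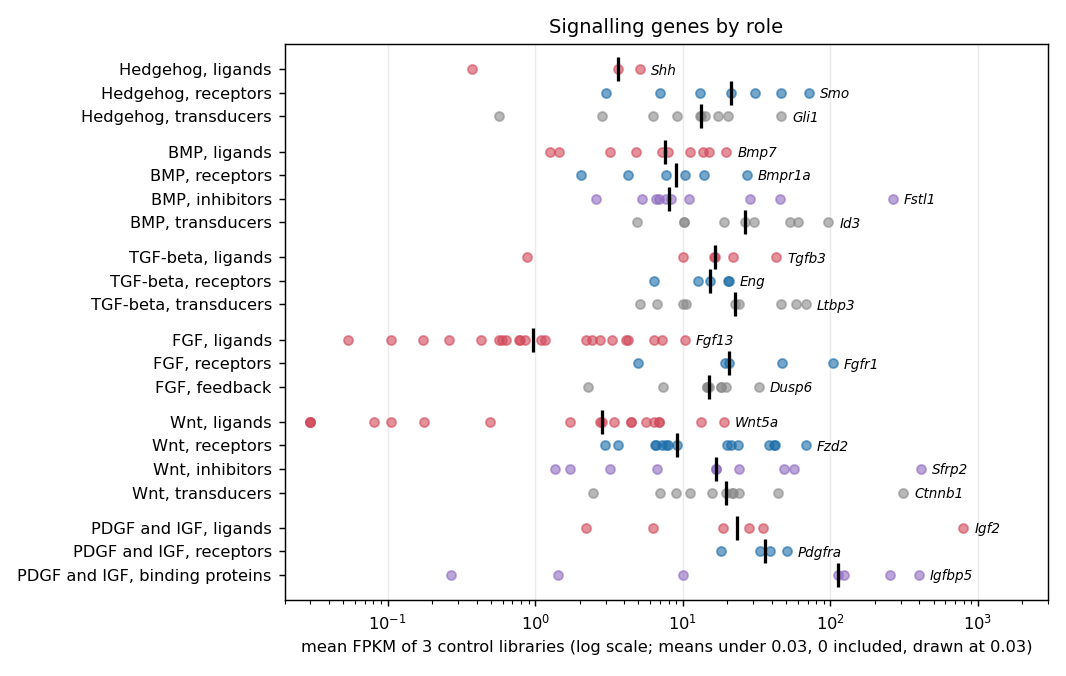
Each point is the mean FPKM of a gene over the 3 control libraries on a log axis, in rows by pathway and role, with the row's median as a black bar and its highest gene named; means under 0.03 are drawn at 0.03. FGF and Hedgehog ligands lie to the left of their receptors, while Fstl1, Sfrp2 and Igf2 stand far to the right of their rows.

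Matrix genes were read from a list chosen with earlier results of these data known, so its counts partly follow from the choice. All 84 listed matrix genes reached 1 FPKM, against 58.9% of the protein-coding genes in the table. Of the 84, 67 reached 10 FPKM, with a median of 37.2 FPKM and a summed level of 7237 ± 560 FPKM. Col1a1, the main chain of bone and connective tissue collagen (GRCm38 chromosome 11, 94936224 to 94953042), stood at 1002, 714 and 862 FPKM. Its partner Col1a2 stood at 693, 524 and 607 FPKM and Col3a1, the chain of loose connective tissue, at 454, 432 and 476 FPKM. The 2 type I chains moved together, at a ratio of 1.41 ± 0.0425, although each varied by more than 13%. Their chaperone Serpinh1 was 602 ± 59.0 FPKM and followed them less closely. It was 0.598, 0.763 and 0.769 times Col1a1, with only replicate 1 apart.

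Of 44 collagen chain genes, 37 reached 1 FPKM. After Col3a1 came Col2a1 at 165 FPKM, Col6a2 at 149 FPKM and Col26a1 at 142 FPKM. The type VI pair kept a ratio of 0.811 ± 0.0273 (Col6a1 over Col6a2) and the basement membrane pair 1.33 ± 0.0158 (Col4a1 over Col4a2). Col10a1, the chain of hypertrophic cartilage, was listed at 0 in replicates 1 and 2 and at 0.101 FPKM in replicate 3, and the basement membrane chains Col4a3 and Col4a4 were listed at 0. Glycoproteins were led by Sparc, a collagen-binding protein, at 487, 454 and 539 FPKM, Postn, of periosteum and fibrous tissue, at 437, 348 and 417 FPKM, and the microfibril protein Mfap2 at 268, 283 and 323 FPKM. Elastin (Eln) already stood at 160.0 ± 14.1 FPKM and fibronectin (Fn1) at 131 ± 10.2 FPKM. Biglycan (Bgn) led the small proteoglycans at 181, 171 and 216 FPKM.

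Hyaluronan, a sugar polymer that swells the shelf matrix with water during elevation, was served by modest transcript levels. Has2, the main embryonic synthase, stood at 15.4, 11.6 and 11.4 FPKM, Has3 at 3.79, 3.06 and 2.48 FPKM and Has1 at 0.808, 0.502 and 0.323 FPKM. All 3 synthases were highest in replicate 1, as were 39.4% of all genes, and Has1 was under 1 FPKM. Hyal2, which cuts hyaluronan at the cell surface, was higher than any synthase at 28.8, 32.1 and 34.7 FPKM, and Cemip2, another surface enzyme, stood at 15.8 FPKM. Versican (Vcan), a large hyaluronan-binding proteoglycan, stood at 70.5, 53.4 and 58.1 FPKM and the receptor Cd44 at 13.8 ± 0.508 FPKM. Among matrix-cutting enzymes, the membrane protease Mmp14 stood at 145 ± 8.77 FPKM and Mmp2, which it activates, at 121 ± 10.3 FPKM. Mmp13, an enzyme of the medial edge and of bone, stood at 1.10 FPKM and Mmp3 at 0.091 FPKM, while the inhibitors Timp2 and Timp3 stood at 102 and 33.9 FPKM.

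Cell cycle transcripts were present at even levels. Of 33 proliferation genes, 32 reached 1 FPKM, and their median coefficient of variation (CV, the SD as a percentage of the mean) was 3.71%, against 7.96% over all 14657 genes and 5.72% over genes between 30 and 100 FPKM, where the list's median of 37.4 FPKM lies. It was 1.97% for the S phase genes, 4.11% for the mitosis genes and 5.81% for the G1 genes and inhibitors. Without replicate 1 the median over all genes was 4.99%. Pcna, the sliding clamp of DNA replication, stood at 93.6, 96.8 and 92.6 FPKM, Mki67 at 32.7, 28.1 and 27.3 FPKM and the replicative helicase subunit Mcm3 at 38.02, 38.06 and 38.02 FPKM. Mcm3 had the smallest CV of the 6667 protein-coding genes at 10 FPKM or more, 0.0576%. Of 12 immediate early genes, 2 reached 10 FPKM. Jun was highest at 22.5 FPKM, with Egr1 at 9.18 FPKM and Fos at 1.59 FPKM. Of 7 heat shock genes, 5 reached 10 FPKM and 3 reached 100 FPKM. Their highest mean was 731 FPKM, while Hspa1a stood at 1.16 FPKM. Hypoxia-responsive genes were less even, and all 6 at 1 FPKM or more were lowest in replicate 3, with Vegfa, the vascular growth factor, at 44.8, 37.8 and 31.8 FPKM. Over all genes, 36.4% were lowest in replicate 3.

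Integrin-linked adhesion genes, the class to which the floxed gene belongs, had a mixed range. Zyxin (Zyx) stood at 54.7 FPKM, paxillin (Pxn) at 35.3 FPKM, focal adhesion kinase (Ptk2) at 22.3 FPKM and the kinase Src at 28.6 FPKM. Within the p130Cas family of adaptors, Efs stood at 42.2, 42.2 and 46.1 FPKM and Nedd9 at 16.5, 14.7 and 13.6 FPKM. Bcar1 itself stood at 1.798, 1.97 and 2.09 FPKM, at rank 12829 of the table, and Efs was 22.3 ± 1.03 times as high. Cass4 averaged 0.07 FPKM. The beta subunits Itgb1 and Itgb5 led the integrins at 115 and 111 FPKM.

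Cell types other than mesenchyme were read from their markers. The palatal epithelium was represented: all 16 listed epithelial genes reached 1 FPKM. The basal keratins stood at 138, 143 and 118 FPKM for Krt17, 123.5, 133 and 99.02 FPKM for Krt14 and 90.4, 125 and 81.9 FPKM for Krt5. The junction protein gene Cdh1 stood at 21.6 ± 0.944 FPKM, and Trp63, a regulator whose loss gives cleft palate, at 11.8 ± 2.33 FPKM. Replicate 3 was lowest in 13 of the 16 genes, against 36.4% of all genes. Periderm is the flat outer layer that keeps the shelves from sticking early. Of its 7 listed genes, 6 reached 1 FPKM and 2 reached 10 FPKM, with a median of 3.53 FPKM. The 2 highest were Sfn at 46.3, 53.4 and 41.5 FPKM and Krt6a at 22.7, 21.3 and 18.3 FPKM, and Krt78 was listed at 0. Esrp1, an epithelial splicing factor, stood at 13.8 FPKM, and Snai1, a repressor of Cdh1, at 27.7 ± 0.446 FPKM.

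Endothelial genes were moderate, with all 15 at 1 FPKM or more and a median of 12.9 FPKM. Their median CV was 8.75%, against 7.96% over all genes and 6.15% over genes between 10 and 30 FPKM. Egfl7, secreted by vessels, stood at 42.6, 46.2 and 45.04 FPKM and the junction gene Cdh5 at 26.9, 25.6 and 30.3 FPKM. Replicate 3 was highest in 12 of the 15, against 29.8% of all genes, but the list's median there was 0.11 above its 3-library mean on the log2(FPKM + 1) scale. Macrophage genes were low, from 0.551 FPKM for Cd14 to 11.6 FPKM for the complement gene C1qb (9.09, 10.8 and 15.01 FPKM). Of the lymphocyte genes, Cd3e and Cd8a of T cells and Ms4a1 of B cells were listed at 0, and Cd4 stood at 0.158 FPKM and the B cell gene Cd79a at 0.325 FPKM. The melanocyte enzymes Tyr, Dct and Tyrp1 were also listed at 0, and of that list Kit, which other cells also use, alone reached 1 FPKM. Glial genes of the nerves were present at low, even levels, with a list median of 3.76 FPKM and Sox10 at 4.74, 4.94 and 5.23 FPKM. The receptor Ngfr, at 33.5 ± 1.60 FPKM, alone among the 11 listed reached 10 FPKM.

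Neighbouring structures could be checked in the same way. The tooth enamel genes Amelx and Enam and the salivary genes Bpifa2, Aqp5 and Smgc were listed at 0, and Ambn stood at 5.55, 3.80 and 3.61 FPKM. Of the nasal lining, the cilia factor Foxj1 stood at 7.80 FPKM and the secreted Bpifa1 at 8.55 FPKM, while Scgb1a1 and Muc5ac were listed at 0. Omp, the marker of mature olfactory neurons, stood at 0.22 FPKM. Of the brain and eye list, 4 of 12 genes reached 1 FPKM and the highest mean was 2.01 FPKM, of Otx2.

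Of the lists in the plot of list medians, the 3 libraries lay furthest apart in cartilage, blood, skeletal muscle, neuron and bone genes. Over all 14657 genes, the highest library was more than 2 times the lowest in 356, or 2.43%. With replicate 1, 2 or 3 left out that share was 0.901%, 1.64% or 1.05%. In cartilage it was so for 13 of 18 genes. Replicate 3 was highest in 17 of the 18, against 29.8% of all genes, and the list median was -0.22, -0.40 and 0.65 on the log2(FPKM + 1) scale relative to the 3-library mean. For the named genes as a whole those medians lay between -0.01 and 0.00. Col2a1, the collagen of cartilage, stood at 126, 111 and 258 FPKM, Matn1 at 17.7, 17.8 and 41.6 FPKM, the proteoglycan core Acan at 6.38, 5.04 and 13.3 FPKM and Snorc at 1.10, 1.48 and 9.76 FPKM. Leaving out a library can only keep or narrow the range of such medians. The range of the cartilage medians was 1.05, and 1.05, 0.87 or 0.18 with replicate 1, 2 or 3 left out. The cartilage factor Sox9 varied much less, and Col2a1 was 7.71, 7.59 and 14.2 times Sox9.

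Skeletal muscle genes were also highest in replicate 3, and lowest in replicate 1. Of 26 muscle genes at 1 FPKM or more, 24 were lowest in replicate 1, against 36.9% of all genes, and 21 were highest in replicate 3. Actc1, the fetal muscle actin, stood at 106, 159.6 and 191 FPKM, the fusion-stage factor Myog at 24.6, 37.0 and 40.7 FPKM and the determination factor Myod1 at 9.39, 13.9 and 16.3 FPKM. The list medians were -0.45, 0.10 and 0.32. Their range was 0.77, and 0.22, 0.77 or 0.55 with replicate 1, 2 or 3 left out. Myog kept a ratio of 2.60 ± 0.0819 to Myod1. Creatine kinase (Ckm), a gene of mature fibres, stood at 0.712 FPKM.

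Neuronal genes followed the order of muscle. Stmn2, which acts in growing axons, stood at 8.56, 15.8 and 22.4 FPKM, and Prph, a filament of peripheral neurons, at 6.69, 12.01 and 17.7 FPKM. Of 11 neuron genes at 1 FPKM or more, 10 were highest in replicate 3, against 29.8% of all genes, and 9 lowest in replicate 1, against 36.9%. The highest library was over 2 times the lowest in 5, against 2.43% of all genes. Hand2, given above, had the same order. Isl1, a sensory and motor neuron factor, did not, at 3.68, 3.30 and 2.81 FPKM. The range of the neuron medians was 0.67, and 0.32, 0.67 or 0.35 with replicate 1, 2 or 3 left out. Tubb3, the neuronal tubulin, was 5.01, 5.26 and 7.34 times the glial Sox10.

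Bone genes were highest in replicate 1. Ibsp, a mineral-binding protein of osteoblasts, stood at 426, 229 and 216 FPKM, Ifitm5, specific to osteoblasts, at 54.0, 33.1 and 35.3 FPKM and the phosphatase gene Alpl at 98.9, 83.7 and 81.2 FPKM. Replicate 1 was highest in 6 of 7 bone genes at 1 FPKM or more, against 39.4% of all genes, and Spp1, osteopontin, was the exception at 4.22, 3.23 and 6.20 FPKM. The late genes Bglap and Dmp1 were at 0.490 and 0.777 FPKM. Replicate 1 was also highest in Col1a1, Tbx22 and Sp7, named above. Blood was highest in replicate 2, which led in 9 of 11 erythroid genes against 30.8% of all genes, and replicate 3 was lowest in 9 of 11, against 36.4%. The range of the bone medians was 0.40, and 0.10, 0.40 or 0.29 with replicate 1, 2 or 3 left out. That of the erythroid medians was 0.92, and 0.92, 0.58 or 0.34 in the same order. The part of cell makeup in these differences was not tested.

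**Figure D4:**
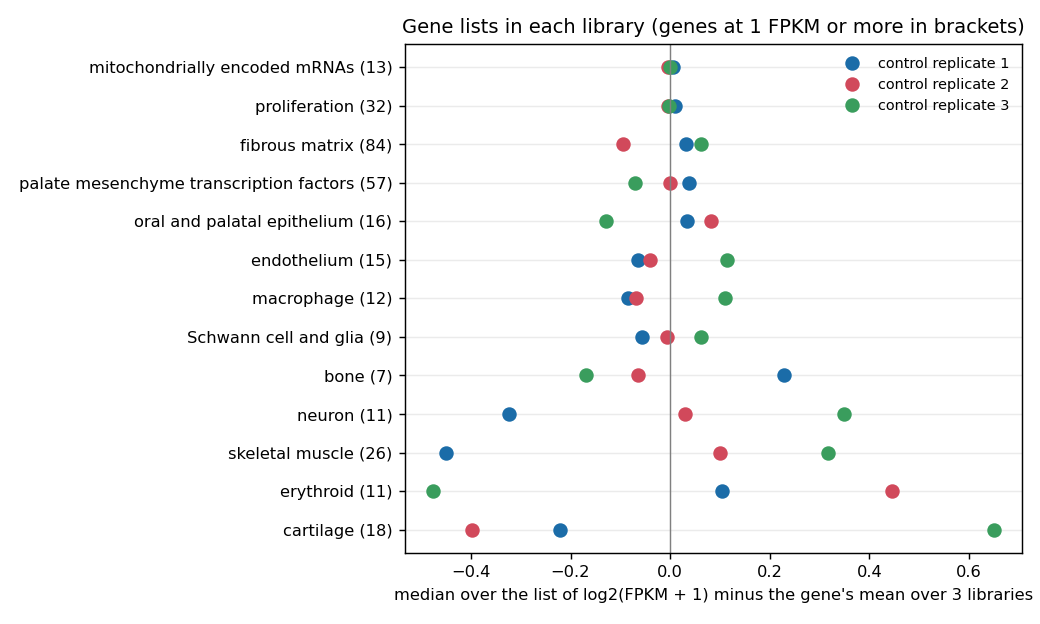
Points give, for each gene list and each control library, the median of log2(FPKM + 1) minus the gene's mean over the 3 libraries, for genes at 1 FPKM or more (number in brackets). Mitochondrial and proliferation lists lie together at 0, while cartilage reaches 0.65 in replicate 3, muscle -0.45 in replicate 1 and erythroid genes 0.45 in replicate 2.

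Lists of the mesenchyme had closer medians, although their genes were not more even than others. The 10 mesenchyme markers stayed within -0.11 and 0.08, with a median CV of 11.99% against 7.96% over all genes. The matrix list stayed within -0.09 and 0.06, although 57 of its 84 genes were lowest in replicate 2, against 26.7% of all genes. The palate mesenchyme factors stayed within -0.07 and 0.04, but their median CV was 12.3%, and the highest library was over 2 times the lowest in 5 of 57, against 2.43% of all genes. The 13 mitochondrially encoded mRNAs had a median CV of 3.39%. Spread fell with level, from a median CV of 15.6% between 1 and 2 FPKM to 5.72% between 30 and 100 FPKM, and was 8.56% at 300 FPKM or more. Of the 6667 protein-coding genes at 10 FPKM or more, 5368 had a CV under 10% and 52 a CV over 30%.

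The 15 largest CVs of those genes were held by the following genes. The cartilage genes Matn1, Col2a1, Col9a3, Cnmd, Col9a1 and Matn4, with CVs between 42.5% and 53.7%, were joined by Rflna, a regulator of skeletal growth, at 7.58, 7.07 and 17.0 FPKM. Neurons gave Prph and Stmn2, and blood gave Hbb-bh1. The other 5 were as follows. Rps27a, a ribosomal protein gene with a listed pseudogene, stood at 233.98, 641 and 548 FPKM, Rps27rt at 174, 87.7 and 303.5 FPKM, Hnrnpa3 at 21.2, 41.7 and 16.4 FPKM, and an ID named Sept2 and the predicted gene Gm38431 completed the set. At the other end, the 10 smallest CVs lay between 0.0576% and 0.259% and covered Mcm3, 4833420G17Rik, Eif3j1, Cdk9, Specc1l, S1pr2, Trim35, Tor1aip2, Pafah1b2 and Cbfa2t2. Cdk9, the kinase that releases paused RNA polymerase, stood at 36.6, 36.7 and 36.6 FPKM, and S1pr2, a lipid receptor, at 11.92, 11.93 and 11.97 FPKM.

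**Figure D5:**
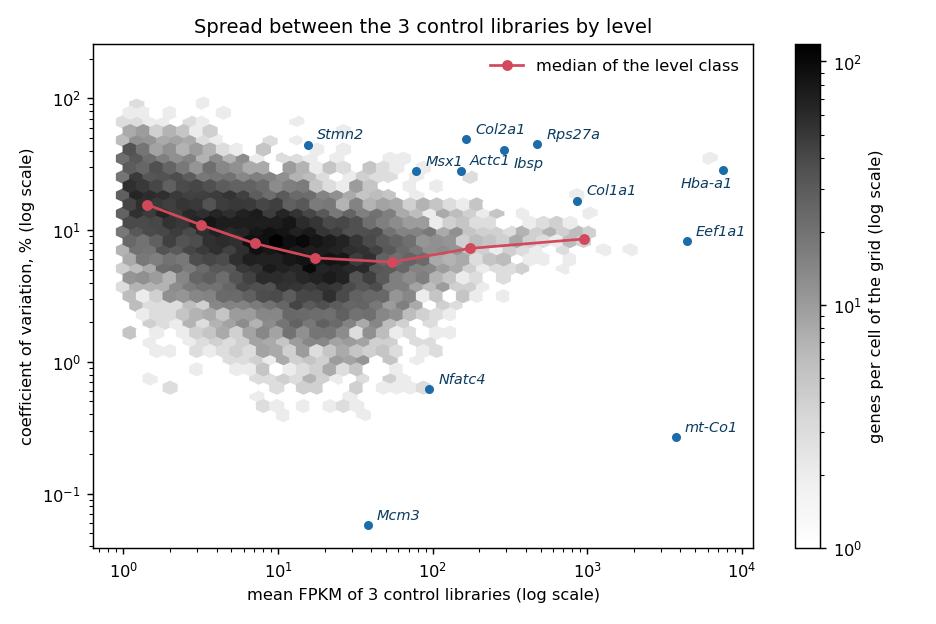
The grid shade gives the number of genes (log scale) by mean FPKM and by CV between the 3 control libraries, for genes at 1 FPKM or more, and the red line the median CV of each level class. The median falls from 15.6% to 5.72% and rises to 8.56% at the top, where Hba-a1 (28.6%) lies far above mt-Co1 (0.268%).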

How the data were processed

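RNA of palatal shelves at E14.5 was extracted with a ReliaPrep kit and sequenced, per the labels' protocols. The authors deposited FPKM values for 55631 Ensembl gene IDs in 6 libraries, and the unit comes from the name of their table. Build mm10 and DESeq2 1.5.2 are listed, per the submitters' processing notes. Which aligner, counter, annotation release and strand setting were used is not given in the sources used here, so overlapping and antisense genes cannot be told apart. Levels of genes with near-identical copies depend on the unknown handling of shared reads. Read totals are unknown; the FPKM summed to 399240, 424993 and 406838.

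Only the 3 control columns, matched to titles by library name, were used. Symbols, biotypes and coordinates came from GENCODE M21 (GRCm38) through the Ensembl IDs. These named 50824 entries and left 4807 unnamed, with 211 of the unnamed at a mean of 1 FPKM or more. Of 807 list genes, 802 were matched; Hoxb4, Dnah5, Muc5b, Dspp and Ahsp were not analysed here. Where 59 symbols had several IDs, the protein-coding and then the higher ID was used. Promoter windows came from RefSeq GRCm38.p6.

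Means, sample SDs, CVs and ranks were computed from the deposited FPKM with Python 3.11.15, numpy and pandas. Genes at a mean of 1 FPKM or more were kept for spread, and lists were compared between libraries as log2(FPKM + 1). No group was tested against another, so no p-value is given. The spread and scaling functions were tested on simulated data. Named genes were the 30 highest, the 20 highest transcription factors and the highest of each family, up to 4 of the highest members of each list and role and those at 0 or under 1 FPKM, all members of the palate, Hedgehog, BMP, TGF-beta, FGF, Wnt and hyaluronan lists, and the 15 largest and 10 smallest CVs at 10 FPKM or more. A few other list members were chosen after their values were seen. Rpl and Rps copies, Gapdh and Gm pseudogenes discussed in the closing section were too. The members and lists were chosen with earlier results of these data known. Alternatives were other minimums, scalings, pseudocounts and gene classes, and each library left out in turn. A few list genes are not reported here.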

Additional observations from a re-analysis of the deposited data

How the results depend on the processing

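The number of genes at 1 FPKM or more was 14657 and stayed within 1.5 times that under every setting tried, from 9903 at a minimum of 5 FPKM to 17265 after rescaling to TPM, and from 14585 to 14666 with a library left out. The 100 highest genes held 27.1% of FPKM without mitochondrially encoded genes, and between 28.4% and 29.8% with a library left out. The pseudogenes that matched mitochondrial genes in level, such as Gm10925, were kept in that setting. The median CV was 12.9% over all genes above 0 and 10.9% at a minimum of 0.1 FPKM. It ranged from 4.99% to 7.71% with a library left out, the lowest without replicate 1. The share of genes over 2 times apart was 14.3% at a minimum of 0.1 FPKM, 0.677% at 5 FPKM and 0.75% after adding 1 FPKM, and lay between 0.901% and 1.64% with a library left out, fewer libraries giving a narrower range by construction. The other settings left these 4 results within their spread between libraries or, for counts and shares of genes, within 1.5 times.

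Counts of list genes highest or lowest in a library, a check added after seeing the data, held within 1.5 times under TPM, median-of-ratios and quantile scaling, the least close being 6 instead of 9 erythroid genes under quantile normalization. Ranges of list medians moved by more than their spread in 16 cases, 11 of them with a library left out and 5 for the mitochondrial and proliferation lists under other scalings. Of the 20 highest factors, 19 or 20 remained when a library was left out. No paired analysis was possible because no groups were compared. Depth is unknown, and values near 0.1 FPKM are at the floor of the table.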

Other observations

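Of 71 pairs of a gene and a copy matched by symbol, both at 10 FPKM or more, the sum had a smaller CV than either member in 14, among them 8 of 45 ribosomal protein pairs. In the other pairs it did not. The 4 pairs below were chosen after their values were seen. Rps27a stood at 233.98, 641 and 548 FPKM while Rps27a-ps2 stood at 209, 61.2 and 62.1 FPKM, and the CV was 44.98% for the gene, 76.8% for the copy and 22.5% for the sum. Rps27 at 389, 649 and 369 FPKM and Rps27rt at 174, 87.7 and 303.5 FPKM gave CVs of 33.2% and 57.6%, against 13.3% for the sum. Rpl7a at 454, 371 and 337 FPKM and Rpl7a-ps11 at 115, 187 and 192 FPKM gave 15.5% and 26.0%, against 3.77% for the sum. Rpl21 with Rpl21-ps15 gave 14.8% and 16.3%, against 6.87% for the sum. The handling of shared reads was not tested.

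Gapdh, a glycolytic gene often used as a reference, was listed at only 12.9, 13.7 and 11.3 FPKM, at rank 5914, and at 0.0115 ± 0.00155 times Actb. Its pseudogene Gapdh-ps15 was listed higher, at 23.1, 26.6 and 27.3 FPKM. Among the IDs without a symbol in the annotation used were ENSMUSG00000119584 at 771, 1185 and 1339 FPKM at place 26 and ENSMUSG00002076173 at 484, 723 and 1147 FPKM.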
